A study of Mus musculus with 6 samples.

Results

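The BCL2 family decides at the outer membrane of the mitochondrion whether a cell lives or enters apoptosis. Anti-apoptotic proteins (BCL2, BCL-XL, MCL1 and A1) hold the pore-forming effectors BAX and BAK in check, and the BH3-only proteins (BIM, PUMA, NOXA and others) bind and neutralise the anti-apoptotic proteins or engage the effectors directly. In T cells, BCL2 and MCL1 sustain naive and memory cells under IL-7 and IL-15, BIM drives the loss of effector cells after a response, and NOXA binds MCL1 and A1. Transcripts of 10 members of this family were followed here, chosen by name out of 28773 genes listed: the anti-apoptotic genes Bcl2, Bcl2l1, Mcl1, Bcl2a1b and Bcl2a1d, the effectors Bax and Bak1, and the BH3-only genes Bcl2l11, Bbc3 and Pmaip1.

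The RNA came from CD8+ T cells of mouse spleen on day 35 after tumour inoculation. All mice had a tumour treated by microwave ablation (MWA), in which heat from a microwave antenna destroys the tissue, and then received injections of either PBS, the vehicle (MWA+PBS, 3 samples, numbered 1 to 3), or 2DG, 2-deoxy-D-glucose, a glucose analog that blocks glycolysis (MWA+2DG, 3 samples, numbered 4 to 6). The study asked whether blocking glycolysis after ablation changes the fate of CD8+ T cells, and the survival genes bear on the question whether transcripts of the death machinery move with it. By the study's methods, the injections had ended before day 35. The mice of the study were female and the cells were isolated with a magnetic kit. Strain, age and tumour line for these 6 samples were not given in the labels, and no untreated mice and no mice given 2DG without ablation were analysed here. Nothing in the labels says that the samples were separate mice, so p-values measure only the spread between samples, which may be technical.

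Values are FPKM, fragments scaled to transcript length and to the mapped fragments of the library, a level per length that can be compared between genes. Totals ran from 291803 to 313257 FPKM per sample and 12198 to 12515 genes per sample stood at 1 FPKM or more. The number of reads behind them is unknown. A log2 fold change is always the difference MWA+2DG minus MWA+PBS on the log2(FPKM + 1) scale, so changes of low genes are understated. A gene is called where its limma p-value, adjusted by Benjamini-Hochberg over the 12444 genes with a mean of at least 1 FPKM, is under 0.05. T cell markers were present in all samples (Cd8a 225.8 to 239.3 FPKM with PBS and 359.0 to 377.1 with 2DG) and Cd4 was low (1.55 to 2.91 FPKM), which fits the labelled cell type. Markers of other spleen cells were present as well and differed between the groups. The summed level of 13 neutrophil markers was 67.1 to 91.9 FPKM in MWA+PBS against 1597.1 to 1777.0 in MWA+2DG, that of 12 monocyte and macrophage markers 605.1 to 658.8 against 100.9 to 106.7, that of 11 erythroid markers 327.7 to 383.4 against 92.2 to 110.7, and that of 10 B cell markers 11.1 to 12.3 against 60.3 to 66.2. In such bulk samples, fewer cells of a type and less RNA per cell cannot be told apart, and the part of these other cells in the results below was not tested.

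The A1 genes need a word on sequence before their values. Mouse Bcl2a1a, Bcl2a1b and Bcl2a1d are copies whose coding sequences, of 519 bases each, differ at 11 positions between a and b, 7 between a and d, and 6 between b and d. The stretch shown, the opening 60 coding bases of each copy from the GENCODE M21 transcripts, holds 6 of the 12 coding positions that differ among the copies, given in capitals, and so shows where reads can be told apart.
Bcl2a1a: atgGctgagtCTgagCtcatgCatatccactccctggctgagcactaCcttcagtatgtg
Bcl2a1b: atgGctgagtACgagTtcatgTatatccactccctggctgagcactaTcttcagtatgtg
Bcl2a1d: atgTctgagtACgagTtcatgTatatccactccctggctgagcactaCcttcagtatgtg
Elsewhere the copies share longer runs. Of all 150-base windows of the transcript, 28.2% of those of Bcl2a1a, 14.2% of those of Bcl2a1b and 30.3% of those of Bcl2a1d occur without a difference in another copy, so the split of reads between the copies is uncertain. The windows were counted singly, and the study sequenced read pairs, so the share of fragments that cannot be placed may be lower.

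At the level of the family, Bcl2 and Bcl2l1 were higher in MWA+2DG, and Pmaip1, Bak1, Bcl2l11 and Mcl1 were lower. Calls were thus made for 2 of the 10 members as higher, where the background over all genes tested was 22.3%, and for 4 as lower, where it was 17.1%. In either direction 6 of 10 members were called, against 39.4% of all genes. The study's threshold of an unadjusted P under 0.05 with an absolute log2 fold change above 0.25 was passed by 6 members, against 38.2% of all genes. These were not the same 6, since Mcl1 and Bcl2l1 missed the size limit and Bcl2a1d and Bbc3 passed this rule only. The samples of the 2 groups did not overlap for 7 members, against 52.1% of all genes. The median log2 fold change of the members was -0.14, beside 0.05 over all genes tested. So many genes differed between these groups that a call by itself does not set a member apart. By role, 2 of 5 anti-apoptotic members were called higher and 1 lower (median 0.23), 1 of 2 effectors was called lower (median -0.17), and 2 of 3 BH3-only members were called lower and none higher (median -0.40).

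**Figure D1:**
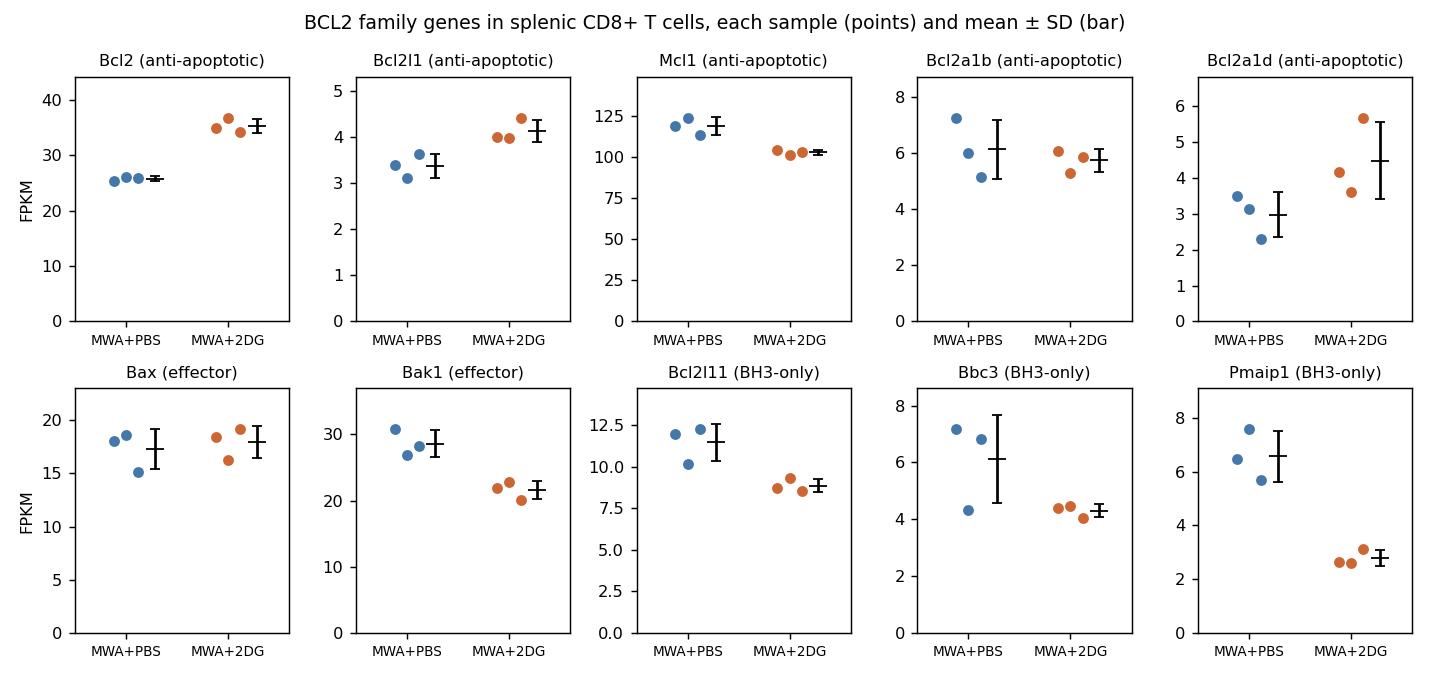
FPKM of each of the 10 members (vertical axes, linear and starting at 0) in the 3 MWA+PBS samples (blue) and the 3 MWA+2DG samples (orange), with points in sample order and the mean ± SD as a black bar. The groups are apart in 7 panels and overlap for Bcl2a1b, Bax and Bbc3, the last because sample 2 lies at 4.33 FPKM.

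Mcl1 was the most abundant member in every sample. It encodes a short-lived protein that lymphocytes depend on for survival. Its levels were 119.4, 124.1 and 113.4 FPKM in the MWA+PBS samples and 104.5, 101.5 and 103.3 FPKM in the MWA+2DG samples. All MWA+2DG samples lay below all MWA+PBS samples, by a small step from 119.0 ± 5.38 to 103.1 ± 1.49 FPKM (SD, n = 3 each), a fall of 13.3% in a gene that still held 49.1% to 49.9% of the summed FPKM of the 10 members with 2DG. The log2 fold change was -0.20 ± 0.05 (SE, 95% interval -0.33 to -0.08, adjusted p = 0.019 in limma). The call is close to its threshold, since it held without sample 2 or 3 (adjusted p = 0.0303 and 0.0198) and not without sample 1, 4, 5 or 6 (0.0678, 0.0513, 0.059 and 0.061), although the log2 fold change stayed between -0.24 and -0.17.

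Bcl2, the founding anti-apoptotic gene and a target of IL-7 signalling, moved the other way. Levels were 25.4, 26.2 and 25.9 FPKM in the MWA+PBS samples and 34.8, 36.7 and 34.2 FPKM in the MWA+2DG samples. The replicates lay close together and the groups were well apart, 25.8 ± 0.404 against 35.3 ± 1.31 FPKM, a 1.37-fold higher mean. Its log2 fold change was 0.44 ± 0.05 (interval 0.32 to 0.55, adjusted p = 0.000487) and was called in all 6 fits that left out a sample. The median log2 fold change of the T lineage markers was 0.41, with 13 of 15 called higher, 1 called lower (Trat1, an adaptor of the T cell receptor, -0.93, adjusted p = 0.000182) and a summed level of 1571.0 to 1658.2 FPKM in MWA+PBS against 2196.1 to 2355.3 in MWA+2DG. When every sample was scaled to the same mean log2 level of those markers, the difference in Bcl2 was 0.09 and was not called (adjusted p = 0.266).

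Bcl2l1, which encodes BCL-XL and is induced by costimulation, was low at 3.38, 3.11 and 3.62 FPKM in the MWA+PBS samples and 4.0, 3.98 and 4.41 FPKM in the MWA+2DG samples. The groups did not overlap, and the log2 fold change was 0.23 ± 0.08 (interval 0.05 to 0.41, adjusted p = 0.0462). This call was the least stable of the 6. It held without sample 3 (adjusted p = 0.0495) and not without sample 1, 2, 4, 5 or 6 (0.109, 0.0946, 0.0889, 0.0744 and 0.15), and under the T lineage scaling the difference turned to -0.05 (adjusted p = 0.646).

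The A1 genes are induced by NF-kB in lymphocytes and are abundant in neutrophils. Bcl2a1b stood at 7.25, 5.99 and 5.14 FPKM in the MWA+PBS samples and 6.06, 5.28 and 5.87 FPKM in the MWA+2DG samples, with overlapping groups and a log2 fold change of -0.07 (interval -0.33 to 0.19, adjusted p = 0.642). Bcl2a1d stood at 3.51, 3.15 and 2.29 FPKM against 4.17, 3.62 and 5.68 FPKM. Each MWA+2DG sample was above each MWA+PBS sample, but the difference was not called (log2 fold change 0.46 ± 0.16, interval 0.07 to 0.84, adjusted p = 0.0608). It was 0.31 without sample 6, the highest, and was called without sample 5 (0.57, adjusted p = 0.0427). The third copy, Bcl2a1a, fell from 3.59, 2.46 and 2.09 FPKM to 1.36, 1.71 and 1.3 FPKM (log2 fold change -0.58, adjusted p = 0.021). Only Bcl2a1a of the copies was called, and that call was lost without sample 4 or 6, so a difference in direction between them is not established. Within a sample, Bcl2a1d was at 0.446 to 0.526 of Bcl2a1b in MWA+PBS against 0.686 to 0.968 in MWA+2DG, and Bcl2a1a at 0.407 to 0.495 against 0.221 to 0.324. The uncertain split of reads bears on these ratios as well. The sum of the copies did not pass the test, 11.8 ± 2.42 against 11.7 ± 1.12 FPKM, with an interval of the log2 fold change from -0.32 to 0.32 (adjusted p = 0.99). Because of the shared sequence shown above, the sum rests less on the split of reads than the single copies do. It ran from -0.14 to 0.14 when a sample was left out, and under the T lineage scaling it was called lower (-0.33, adjusted p = 0.0401).

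Among the effectors, Bak1, which encodes a protein resident in the outer mitochondrial membrane, fell. Its levels were 30.8, 26.8 and 28.2 FPKM in the MWA+PBS samples and 21.8, 22.8 and 20.1 FPKM in the MWA+2DG samples. The highest MWA+2DG sample lay below the lowest MWA+PBS sample, and the mean fell by 24.5%, from 28.6 ± 2.01 to 21.6 ± 1.37 FPKM (log2 fold change -0.39 ± 0.07, interval -0.56 to -0.22, adjusted p = 0.00443). The call was made in all 6 fits without a sample. Bax, whose protein moves from the cytosol to the mitochondrion, was at 18.1, 18.6 and 15.2 FPKM and at 18.5, 16.2 and 19.2 FPKM. Its groups overlapped, and the log2 fold change of 0.05 had an interval of -0.17 to 0.27 (adjusted p = 0.682), although the T lineage scaling turned it to -0.28 (adjusted p = 0.0108). Bax over Bak1 within a sample, a ratio that no scaling changes, was 0.587, 0.694 and 0.537 in MWA+PBS against 0.845, 0.711 and 0.952 in MWA+2DG, so Bak1 was the higher of the pair in all 6 samples and by less with 2DG.

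Pmaip1, which encodes NOXA, showed the largest difference of the 10 members. Levels were 6.46, 7.58 and 5.69 FPKM in the MWA+PBS samples and 2.62, 2.59 and 3.12 FPKM in the MWA+2DG samples. The lowest MWA+PBS sample was well above the highest MWA+2DG sample, and the mean fell by 57.8%, from 6.58 ± 0.95 to 2.78 ± 0.298 FPKM. The log2 fold change was -1.0 ± 0.11 (interval -1.25 to -0.75, adjusted p = 0.000334) and lay between -1.09 and -0.91 when any sample was left out, called each time. Pmaip1 is a known target of p53 and of ATF4.

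Bcl2l11 encodes BIM, which binds all anti-apoptotic members. Levels were 11.96, 10.17 and 12.26 FPKM in the MWA+PBS samples and 8.74, 9.30 and 8.52 FPKM in the MWA+2DG samples. The groups did not overlap, the mean fell by 22.8% from 11.5 ± 1.13 to 8.85 ± 0.402 FPKM, and the log2 fold change was -0.34 ± 0.08 (interval -0.52 to -0.15, adjusted p = 0.0132). Without sample 1 the adjusted p was 0.051, and the call was made in the other 5 fits. Bbc3, which encodes PUMA, stood at 7.17, 4.33 and 6.82 FPKM and at 4.38, 4.47 and 4.05 FPKM. Sample 2 of MWA+PBS lay among the MWA+2DG samples, and the log2 fold change of -0.40 ± 0.16 (interval -0.76 to -0.03) was not called (adjusted p = 0.0797). Without that sample it was -0.59 (adjusted p = 0.00127), and in the other 5 fits without a sample it was not called, with -0.29 without sample 1 (adjusted p = 0.222) and -0.32 without sample 3 (adjusted p = 0.206).

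**Figure D2:**
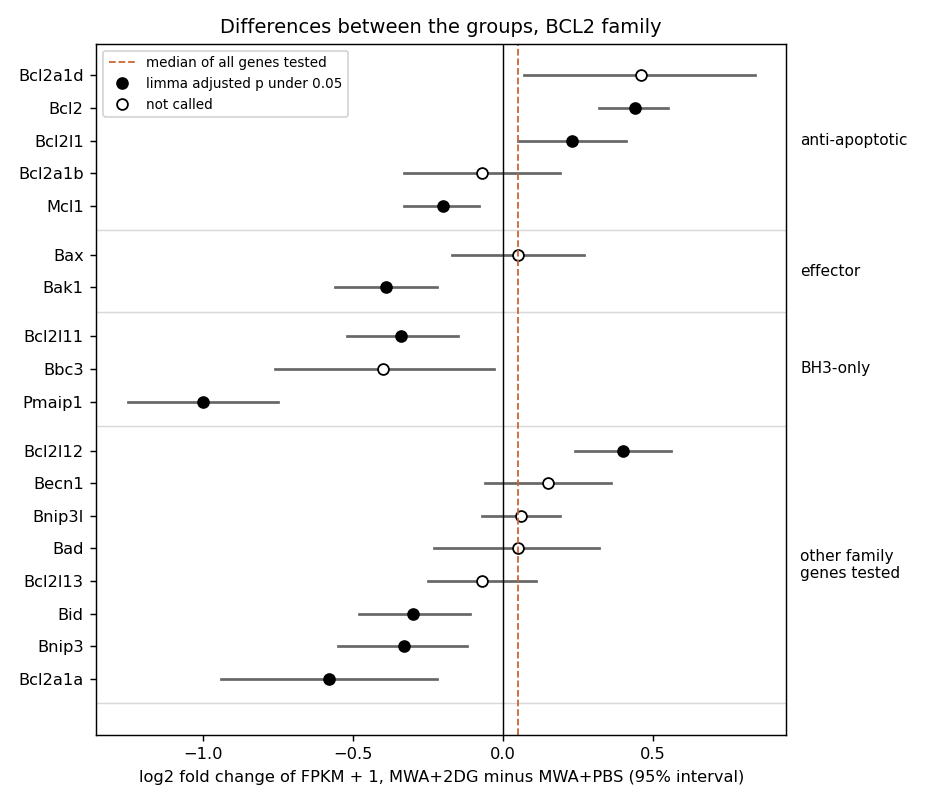
Log2 fold change of FPKM + 1 (horizontal axis, MWA+2DG minus MWA+PBS) with its 95% interval for the 10 members by role and for the 8 other family genes tested. Filled points have a limma adjusted p under 0.05, and the dashed line marks the median of all genes tested, 0.05. Pmaip1 lies farthest left at -1.0.

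BIM and PUMA genes are known targets of FOXO transcription factors, and those factors differed between the groups. Foxo1 rose from 21.1 ± 1.22 to 29.7 ± 1.61 FPKM (log2 fold change 0.47, adjusted p = 0.00117, but 0.13 and adjusted p = 0.223 under the T lineage scaling), whereas Foxo3 fell from 16.6 ± 1.67 to 12 ± 1.04 FPKM (-0.43, adjusted p = 0.00762). The 250 bases before a RefSeq start of each gene are shown because they hold the FOXO core motif GTAAACA, searched on both strands and given in capitals. Both are printed 5′ to 3′ on the plus strand, the strand of both genes, from assembly GRCm38.p6.
Bcl2l11, chr2:128125788-128126037: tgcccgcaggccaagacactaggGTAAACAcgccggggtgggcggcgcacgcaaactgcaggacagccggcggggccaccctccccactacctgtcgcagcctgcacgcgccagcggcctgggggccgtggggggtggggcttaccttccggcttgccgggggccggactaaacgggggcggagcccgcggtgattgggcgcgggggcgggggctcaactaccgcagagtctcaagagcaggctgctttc
Bbc3, chr7:16310011-16310260: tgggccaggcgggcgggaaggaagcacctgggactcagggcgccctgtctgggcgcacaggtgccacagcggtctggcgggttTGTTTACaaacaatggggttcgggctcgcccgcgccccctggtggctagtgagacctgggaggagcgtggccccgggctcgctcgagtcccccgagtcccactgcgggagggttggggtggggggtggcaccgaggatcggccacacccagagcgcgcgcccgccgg
In Bcl2l11 the motif begins 227 bases before the start, in 1 of the gene's 2 annotated windows of 300 bases. In Bbc3 it lies on the opposite strand, so that it reads as TGTTTAC, 167 bases before the start in 1 of 3 windows. Of all 32851 windows, 3.65% held the motif. RefSeq windows were at hand for 9 of the 10 members. Pmaip1 had none, so it was not searched for any of the motifs given here. The other members with a window had no match. The motif TGANTCA, a loose form of the AP-1 site in which any base may stand in the middle, occurred in the windows of Bcl2a1a, Bcl2a1b and Bcl2a1d and in 7.81% of all windows. In all 3 copies the match read TGAATCA, which is not the AP-1 consensus with C or G in the middle. The cyclic AMP response motif TGACGTCA (1.79% of all windows) and the paired heat shock half-sites GAANNTTC (7.86%) occurred in no window of these genes. The motifs were chosen after the expression values were seen, and a match describes the sequence only.

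Within a sample, the balance between members does not depend on how the library was scaled. The order of levels in MWA+PBS was Mcl1, Bak1, Bcl2, Bax, Bcl2l11, Pmaip1, Bcl2a1b, Bbc3, Bcl2l1 and Bcl2a1d, in which Pmaip1, Bcl2a1b and Bbc3 overlapped their neighbours over the 3 samples, as did Bcl2l1 and Bcl2a1d. In MWA+2DG it was Mcl1, Bcl2, Bak1, Bax, Bcl2l11, Bcl2a1b, Bcl2a1d, Bbc3, Bcl2l1 and Pmaip1, with overlap along the run from Bcl2a1b to Bcl2l1. Bcl2 and Bak1 had changed places, and Pmaip1 had gone from rank 6 to rank 10.

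Ratios of a survival gene to a death gene put numbers on this, as a description without a test. The pairs combine genes whose differences are given above, so a ratio whose groups lie apart restates them and is not further evidence. Bcl2 over Bcl2l11 was 2.12, 2.57 and 2.11 in MWA+PBS against 3.99, 3.95 and 4.02 in MWA+2DG, a mean of 2.27 ± 0.264 against 3.98 ± 0.0335. Bcl2 over Bak1 was below 1 in every MWA+PBS sample (0.823, 0.974 and 0.917) and above 1 in every MWA+2DG sample (1.59, 1.61 and 1.70). Mcl1 over Pmaip1, the pair of NOXA and its main partner, was 18.5, 16.4 and 19.9 against 39.9, 39.2 and 33.1. Not every such ratio was apart. Mcl1 over Bcl2l11 overlapped, at 9.99, 12.2 and 9.25 against 12, 10.9 and 12.1, since both genes were lower with 2DG. Bcl2l1 over Bcl2 overlapped too, at 0.119 to 0.14 against 0.108 to 0.129.

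Summed by role, the anti-apoptotic members took 68.1% to 70.6% of the FPKM of the 10 members in MWA+PBS against 73.2% to 73.6% in MWA+2DG. The BH3-only share was 9.60% to 11.3% against 7.51% to 7.92%, and the effector share 19.8% to 20.9% against 18.8% to 19.2%. The anti-apoptotic sum itself overlapped between the groups (157.3 ± 6.29 against 152.7 ± 1.37 FPKM), with Bcl2 higher and Mcl1 lower. The BH3-only sum was 24.1 ± 1.84 FPKM against 15.9 ± 0.373, and as a percentage of the anti-apoptotic sum it was 16.1, 13.6 and 16.5 against 10.3, 10.8 and 10.2. These are transcripts, and protein levels and cell death were not measured in these files. By flow cytometry of spleens, the study reported no significant difference between these treatments in non-apoptotic central memory CD8+ T cells.

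**Figure D3:**
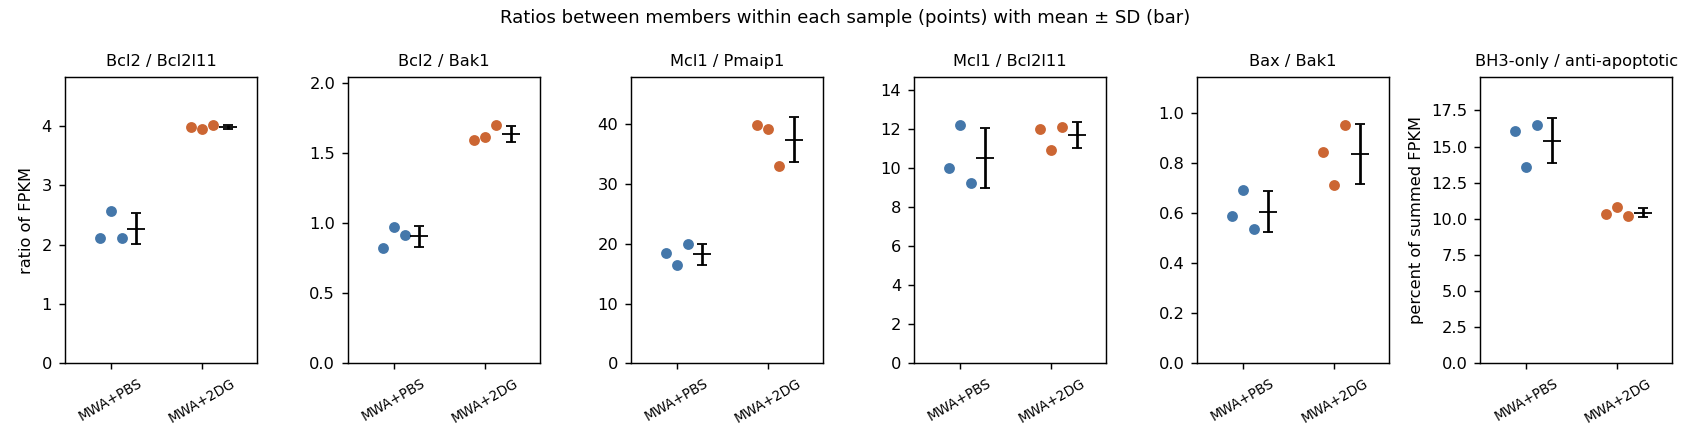
Ratios of FPKM within each sample (vertical axes, linear and starting at 0) for 5 pairs of members and, at the right, the BH3-only sum as a percentage of the anti-apoptotic sum, in the 3 MWA+PBS (blue) and 3 MWA+2DG (orange) samples with mean ± SD (black). The groups are apart except for Mcl1 over Bcl2l11, and Bcl2 over Bak1 crosses 1 between the groups.

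Of the other family genes, 16 were listed and 8 reached a mean of 1 FPKM. Bcl2l12 was the only one of these called higher (4.08 ± 0.202 to 5.70 ± 0.325 FPKM, log2 fold change 0.40, adjusted p = 0.00335), a call lost under the T lineage scaling (0.10, adjusted p = 0.301). Besides Bcl2a1a, the 2 others called lower were Bid, the BH3-only protein that caspase-8 cleaves (8.65 ± 0.286 to 6.86 ± 0.714 FPKM, -0.30, adjusted p = 0.0205), and the mitophagy receptor Bnip3 (2.20 ± 0.245 to 1.53 ± 0.11 FPKM, -0.33, adjusted p = 0.0246). Bad (0.05, adjusted p = 0.79), the mitophagy receptors Bnip3l (0.06, adjusted p = 0.429) and Bcl2l13 (-0.07, adjusted p = 0.51) and the autophagy gene Becn1 (0.15, adjusted p = 0.219) were not called. The 8 genes under the filter stood below 1 FPKM in every sample. Bcl2l2, the gene of BCL-W, had the highest mean of them with 0.79 to 0.98 FPKM in the MWA+PBS samples and 0.46 to 0.62 in the MWA+2DG samples, the BH3-only gene Bmf had 0.47 to 0.61 and 0.35 to 0.47, and Bcl2l10 and Bcl2a1c were listed at 0 in 5 samples each.

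The pathways on either side of the family were followed by lists of 18 apoptosome, caspase and inhibitor of apoptosis genes, 12 death receptor genes, 19 p53 pathway genes, 12 integrated stress response genes and 13 genes for turnover and transcription of MCL1 and BIM. With the family list, 71 genes were tested, of which 14 were called higher and 19 lower with a median log2 fold change of 0.01. The shares of all genes tested were 22.3% and 17.1%, and the counts of each list below are to be read beside them. Some of the calls named here were lost when 1 sample was left out. This was so for Bcl2a1a without sample 4 or 6, Bnip3 without 2, 4 or 6, Casp8 without 6, Birc3 without 1, 3, 4 or 6, Fasl without 1, 2, 4 or 6, Fadd without 4 or 5, Ripk3 without 1, 4 or 5, Mdm4 without 1, Btg2 without 1, 3 or 5 and Fbxw7 without 1, 4 or 6, at adjusted p between 0.0502 (Casp8) and 0.128 (Birc3), each with its direction kept.

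Of the 18 apoptosome, caspase and inhibitor of apoptosis genes, 3 rose and 1 fell, with a median of 0.05. Birc5, the gene of survivin, which acts in mitosis, fell from 4.26 ± 0.896 to 2.61 ± 0.21 FPKM (-0.53, adjusted p = 0.0121). In the same samples 15 of 16 proliferation genes, a list that also holds Birc5, were called lower, among them Mki67 (34.2 ± 2.56 to 19.0 ± 1.13 FPKM). The ubiquitin ligase gene Birc2 rose from 13.6 ± 2.06 to 18.3 ± 0.788 FPKM (0.41, adjusted p = 0.0137), Casp8, the initiator of the death receptor pathway, by 0.28 (adjusted p = 0.0133) and Birc3 by 0.21 (adjusted p = 0.0392). All 3 of these calls were lost under the T lineage scaling, at 0.08 for Birc2 (adjusted p = 0.494), -0.07 for Casp8 and -0.12 for Birc3.

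Death receptor genes split, with 5 of 12 higher and 3 lower and a median of 0.06. The ligand genes rose: Tnfsf10, the gene of TRAIL, was at 7.10, 7.42 and 6.88 FPKM in the MWA+PBS samples and 11.01, 12.56 and 12.47 FPKM in the MWA+2DG samples (0.68, adjusted p = 0.000256), and Fasl went from 1.29 ± 0.365 to 2.37 ± 0.48 FPKM (0.56, adjusted p = 0.0226). The adaptor gene Fadd rose by 0.34 (adjusted p = 0.0289). Under the T lineage scaling Tnfsf10 kept its call (0.36, adjusted p = 0.00477), and Fasl (0.33, adjusted p = 0.104) and Fadd (0.08, adjusted p = 0.576) did not. Tnfrsf1a, the main TNF receptor, fell from 17.9 ± 1.61 to 12 ± 0.585 FPKM (-0.54, adjusted p = 0.00126), as did the kinase genes Ripk1 (-0.27, adjusted p = 0.0116) and Ripk3 (-0.20, adjusted p = 0.0219). Tnfrsf1a and Foxo3 are also expressed by myeloid cells, and 11 of 12 monocyte and macrophage markers were lower in MWA+2DG (Csf1r 67.9 ± 5.85 to 10.6 ± 0.0945 FPKM). The part of those cells in these falls was not tested.

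Lists upstream of Pmaip1 were the p53 pathway and the integrated stress response, which share Sesn2. Of the 16 p53 pathway genes tested, 2 rose and 4 fell (median -0.03), and Trp53 itself was not called (0.03, adjusted p = 0.758). Those that fell included Cdkn1a, the cell cycle inhibitor p21 (1.73 ± 0.0306 to 0.717 ± 0.163 FPKM, -0.68, adjusted p = 0.00208), Gadd45b (-0.76, adjusted p = 0.00783) and Sesn2 (-0.70, adjusted p = 0.00496). Mdm4, an inhibitor of p53, rose by 0.30 (adjusted p = 0.0141) and Btg2 by 0.25 (adjusted p = 0.0176), and both turned slightly negative under the T lineage scaling (-0.05 and -0.10). Of 9 integrated stress response genes tested, 6 fell and none rose, with a median of -0.53. Those that fell include Hspa5 and Xbp1, which are genes of endoplasmic reticulum stress more widely, so the list is not a measure of ATF4 targets alone. Ppp1r15a, which restores translation after stress, was at 43.8, 43.3 and 38.7 FPKM in the MWA+PBS samples and 21.2, 19.9 and 19.9 FPKM in the MWA+2DG samples (-1.01, adjusted p = 2.76e-05). The chaperone gene Hspa5 fell from 136.5 ± 8.47 to 80.4 ± 1.97 FPKM (-0.75, adjusted p = 8e-05) and Atf4 by 0.42 on the log2 scale (adjusted p = 0.0103). Not called were Ddit3 (0.21, adjusted p = 0.0844), Ddit4 (0.05, adjusted p = 0.575) and Atf3 (-0.54, adjusted p = 0.0669). Immediate early and heat shock genes were lower in the same samples, 14 of 16 called, with Fos at 103.0 ± 5.92 against 15.8 ± 0.662 FPKM and Hspa1a at 130.6 ± 3.45 against 2.25 ± 0.262 FPKM. Such genes can respond to handling of cells, and their part in the differences of Pmaip1 and of the stress genes was not tested.

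Of 10 tested genes that control MCL1 and BIM, 3 rose and 3 fell with a median of 0.01. Besides Foxo1, the kinase gene Mapk9, the gene of JNK2, rose from 7.80 ± 0.248 to 10.3 ± 0.341 FPKM (0.36, adjusted p = 0.00211) and Fbxw7, part of a ubiquitin ligase that targets MCL1, from 3.54 ± 0.282 to 4.71 ± 0.358 FPKM (0.33, adjusted p = 0.015). Under the T lineage scaling neither was called (0.04 and adjusted p = 0.59 for Mapk9, 0.045 and adjusted p = 0.676 for Fbxw7). Besides Foxo3, the co-chaperone gene Bag3 fell from 6.81 ± 1.34 to 2.68 ± 0.517 FPKM (-1.08, adjusted p = 0.00108) and Dynll1, whose dynein light chain binds BIM, from 19.9 ± 1.27 to 11.2 ± 0.499 FPKM (-0.78, adjusted p = 0.000106).

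**Figure D4:**
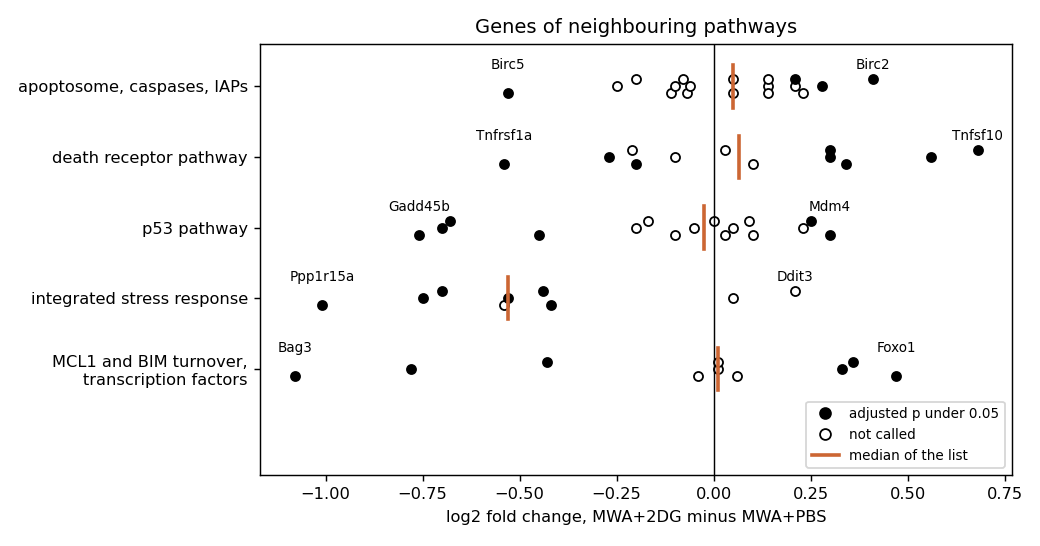
Log2 fold change (horizontal axis, MWA+2DG minus MWA+PBS) of every tested gene in 5 lists around the family. Filled points have an adjusted p under 0.05, orange bars mark each list's median, and the outermost gene on each side is named. The median of the integrated stress response list is -0.53 and those of the other lists lie between -0.03 and 0.06.

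Markers of other cell types moved with these differences. The neutrophil list had 11 of 12 tested genes higher with S100a8 at 5.31 ± 2.17 FPKM in the MWA+PBS samples and 136.3 ± 12.4 in the MWA+2DG samples, and the B cell list had 10 of 10 higher with Cd79a at 1.22 ± 0.261 and 12.5 ± 1.48 FPKM. The erythroid list had 10 of 11 lower with Hba-a1 at 103.1 ± 8.66 and 22.2 ± 2.18 FPKM. Cd3e rose by 0.38 and Cd8a by 0.66 on the log2 scale. Of 5 CD4 T cell markers tested, 2 were lower, with Cd4 at 2.75 ± 0.16 and 1.66 ± 0.11 FPKM. Of the lists for plasma cells, dendritic cells and platelets, 1 of 3, 2 of 2 and 3 of 4 tested genes were lower and none higher. Of 3 natural killer cell markers tested, Eomes, which memory CD8+ T cells also express, rose from 22.8 ± 0.337 to 45.6 ± 1.87 FPKM and Ncr1 fell from 6.54 ± 0.554 to 4.92 ± 0.138 FPKM, and the summed level of the list was 52.0 to 59.7 FPKM in MWA+PBS against 72.8 to 79.0 in MWA+2DG. Without Eomes the sum of the other 5 genes overlapped, at 29.6 to 36.7 against 28.2 to 31.2 FPKM. Members can be expressed by these other cell types too, as the A1 genes and Mcl1 are by myeloid cells. What such cells contributed to the levels and ratios of any of the 10 members was not tested.

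Scaling to T lineage markers set the direction of some members and not of others. With that scaling, the median of all genes tested was -0.26, and 11% of the genes called were higher, against 56.5% without it. Relative to that shift, Pmaip1 (-1.28), Bak1 (-0.73), Bbc3 (-0.70), Bcl2l11 (-0.66) and Mcl1 (-0.56) lay below the median of all genes, as did Bcl2a1b (-0.38) and, by little, Bax (-0.28), and Bcl2a1d (0.18), Bcl2 (0.09) and Bcl2l1 (-0.05) lay above it. No member was then called higher, where the background was 6.35% of all genes, and 7 were called lower, where it was 51.3%.

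**Figure D5:**
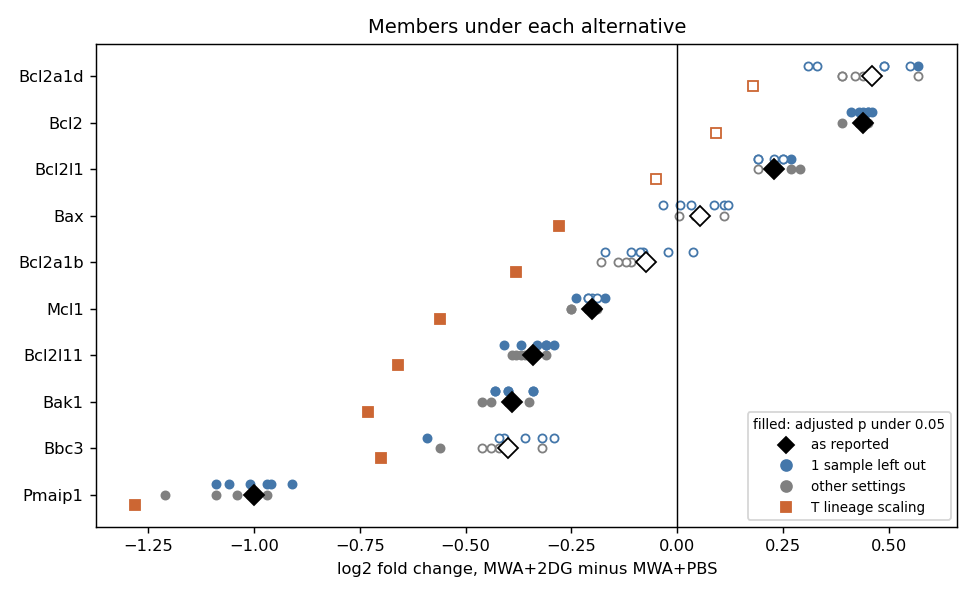
Log2 fold change of each member (horizontal axis) as reported (black diamonds), with 1 sample left out (blue), under other settings of filter, pseudocount, scaling and variance model (grey), and with samples scaled to equal T lineage marker levels (orange squares). Filled symbols have an adjusted p under 0.05. Pmaip1, Bak1, Bbc3, Bcl2l11 and Mcl1 stay left of 0 throughout, and Bcl2 and Bcl2a1d stay right of it.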

How the data were processed

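The deposited files hold FPKM per gene, 1 file per sample, given by the authors to 2 decimals. Per the submitters' processing notes, cutadapt 1.9, HISAT2 2.0.4, UMI-tools, StringTie 1.3.4d and the genome build mm9 were used, and the study's methods name fastp and ballgown as well. No annotation release was named in these sources. The libraries were poly(A)-selected and marked the strand. Depth cannot be read from FPKM, so no counting intervals are given.

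The 6 files were joined on Ensembl ID, and 28689 of 28773 IDs were matched to a symbol. Groups came from the sample titles. limma 3.58.1 in R 4.3.3 was fitted to log2(FPKM + 1) over genes with a mean FPKM of at least 1, with a variance trend, two-sided tests and Benjamini-Hochberg adjustment over 12444 genes, and was checked on simulated data. Alternatives changed the pseudocount, filter, scaling, variance model and GC and length trends, summed the A1 copies, or left out each sample. T lineage scaling set the mean log2 level of 15 T lineage markers equal in all samples. Ratios between members and sums are descriptions.

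Named were all 10 members, the other family genes, up to 3 called increases and 3 called decreases without overlap per pathway list, and defining marker genes. Atf3, Atf4, Ddit3, Ddit4, Xbp1, Trp53, Eomes and Trat1 were added after their values were seen. A gene of the pathway lists is not reported here and was left out of their counts. The members, gene lists and tests were chosen with earlier results of these data known, so none is independent evidence. Promoter windows came from RefSeq (GRCm38.p6) and the A1 coding sequences from GENCODE M21, neither of which is the build of the files, and no coordinates were converted.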

Additional observations from a re-analysis of the deposited data

How the results depend on the processing

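No paired analysis was possible because the groups share no replicate numbers (1 to 3 and 4 to 6). The count of members higher in MWA+2DG went from 2 to 1 with no filter, with a mean of at least 5 FPKM (where Bcl2l1, Bcl2a1d and Pmaip1 were not tested), with quantile normalization, with median ratio scaling and with scaling without abundant gene classes, and 0 with T lineage scaling. Leaving out a sample gave 1 to 2 such members. The count of members lower went from 4 to 7 with T lineage scaling, while the share of all genes called lower went from 17.1% to 51.3%, and leaving out a sample gave 2 (without MWA+PBS sample 1) to 5. No member (0) passed the study's rule with an absolute log2 fold change beyond 1 in place of 0.25. Of the pathway list genes, 33 were called, and 20 with a mean of at least 5 FPKM, where fewer genes were tested. The count was 45 with T lineage scaling and 40 with sample weights. Of all 12444 genes, 7177 and 6305 were called in these 2 settings, against 4907 as reported. The summed A1 copies went from -0.00 to -0.33 with T lineage scaling (adjusted p = 0.0401), and leaving out a sample gave -0.14 to 0.14, including 0.00103 and 0.0595.

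Some signs turned, among them those of Bcl2l1, Casp8, Birc3, Mdm4 and Btg2, which had been called higher. With T lineage scaling Bcl2l1 was -0.0494, Bax -0.28, Bad -0.20, Bnip3l -0.29, Becn1 -0.19, Casp8 -0.0672, Birc3 -0.12, Mdm4 -0.0479 and Btg2 -0.10, a scaling that shifts every gene down in MWA+2DG. The calls of Bcl2, Bcl2l12, Birc2, Fasl, Fadd, Foxo1, Mapk9 and Fbxw7 were lost with it. Bnip3l was -0.0295 with GC and length trends removed, and Bad -0.0368 with sample weights. Leaving out a sample gave -0.17 to 0.0385 for Bcl2a1b, -0.0332 to 0.12 for Bax and -0.0419 to 0.13 for Bad. The call for Bbc3 was gained with sample weights (-0.56, adjusted p = 0.00471), and those for Bcl2l1 were lost with no filter (adjusted p = 0.0876), quantile normalization (0.0681), median ratio scaling (0.0967) and scaling without abundant classes (0.058). Other named calls lost were those of Bcl2a1a (0.0638), Bnip3 (0.0653), Birc3 (0.0652), Fasl (0.0676) and Fadd (0.0716) with no filter, Birc3 (0.0656) and Fadd (0.0526) with median ratio scaling, Fasl with GC and length trends removed (0.0519) and Birc3 without a variance trend (0.0534). The causes were not tested. Pmaip1 and Bak1 kept direction and call under every alternative in which they were tested, and Bcl2 under all but the T lineage scaling. With 3 samples a group and unknown depth, small differences in genes of a few FPKM, such as Bcl2l1 and the A1 copies, are the least certain.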
